A study of Mus musculus with 6 samples.

Results

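The nuclear genes that encode subunits of respiratory complexes II to V were examined in RNA-seq of mouse cultures labelled as female germline stem cells (FGSCs), with and without metformin. The members were the protein-coding genes whose symbols begin with Sdha to Sdhd or Sdhaf, Uqcr, Uqcc, Cox4 to Cox8 or Atp5, together with Cyc1 and Cycs, and 56 of the 55401 genes in the deposited table met this rule. They comprised 4 subunits of complex II, 9 of complex III, cytochrome c, 18 of complex IV, 17 of complex V and 7 assembly factors of complexes II and III. The control group had 3 libraries from untreated cells and the metformin group 3 libraries from cells given 1 μM metformin for 24 h. All libraries came from a C57BL/6 line grown beyond passage 20 on STO fibroblast feeder cells. The labels do not say that repeats were separate cultures, so that p-values measure the spread between these libraries, which may be technical. Bulk RNA cannot tell fewer cells of a type from less RNA per cell.

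The labelled cell type was compared with its markers. None of 6 germ cell markers reached a mean of 10 FPKM (fragments per kilobase of gene, scaled by the mapped fragments of the library), and Dazl, Pou5f1 and Dppa3 were listed at 0 in every library. None of 4 ovarian somatic markers and none of 5 fibroblast markers reached that level. All 5 blood cell markers did, with a summed FPKM of 338 to 344 in the control libraries and of 340 to 354 in the metformin libraries. Of 4 mast cell markers, Kit and Cpa3 reached it and Fcer1a was listed at 0, and the sum was 474 to 505 FPKM in the control group and 450 to 465 with metformin. The part of this difference in the results below was not tested. The depth, estimated from the steps of low values, was 13400000 to 14000000 fragments per library, at which 3 fragments on 1 kb of gene were worth 0.214 to 0.224 FPKM. This limit covers counting error only.

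Oxidative phosphorylation passes electrons from NADH and succinate along the inner mitochondrial membrane to oxygen and uses the proton gradient so made to synthesize ATP. Complex II takes electrons from succinate, complex III passes them from ubiquinol to cytochrome c, complex IV hands them to oxygen, and complex V is the ATP synthase. Complexes III, IV and V mix nuclear subunits with subunits encoded in mitochondrial DNA, whereas complex II is wholly nuclear. Metformin is a biguanide drug for which an action on complex I has been described.

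Subunit transcripts were among the more abundant ones in these cells. The median level of the 50 members with a mean of at least 1 FPKM was 77.6 FPKM, against 9.35 FPKM for all 10661 genes at that level, and 30 of the 50 were in the top 10% of those genes. Only 8 of the 50 lay under the median of all tested genes. By complex, the median level was 74.5 FPKM for complex II, 110 FPKM for complex III, 87.0 FPKM for complex IV and 74.7 FPKM for complex V, whereas the assembly factors had a median of 6.55 FPKM. Levels of tested members spread least in complex III, where the highest member had 3.73 times the FPKM of the lowest. They spread most in complex IV, with a ratio of 225. That ratio rests on its lowest tested member Cox7a1, the form of heart and skeletal muscle, at 1.33 FPKM. The catalytic head of complex V holds unequal numbers of its subunits, and its genes were ordered as Atp5a1 at 546 FPKM, Atp5b at 468, Atp5c1 at 172, Atp5d at 91.3 and Atp5e at 47.8. Ranges over the 6 libraries did not touch between any neighbours in that order.

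**Figure D1:**
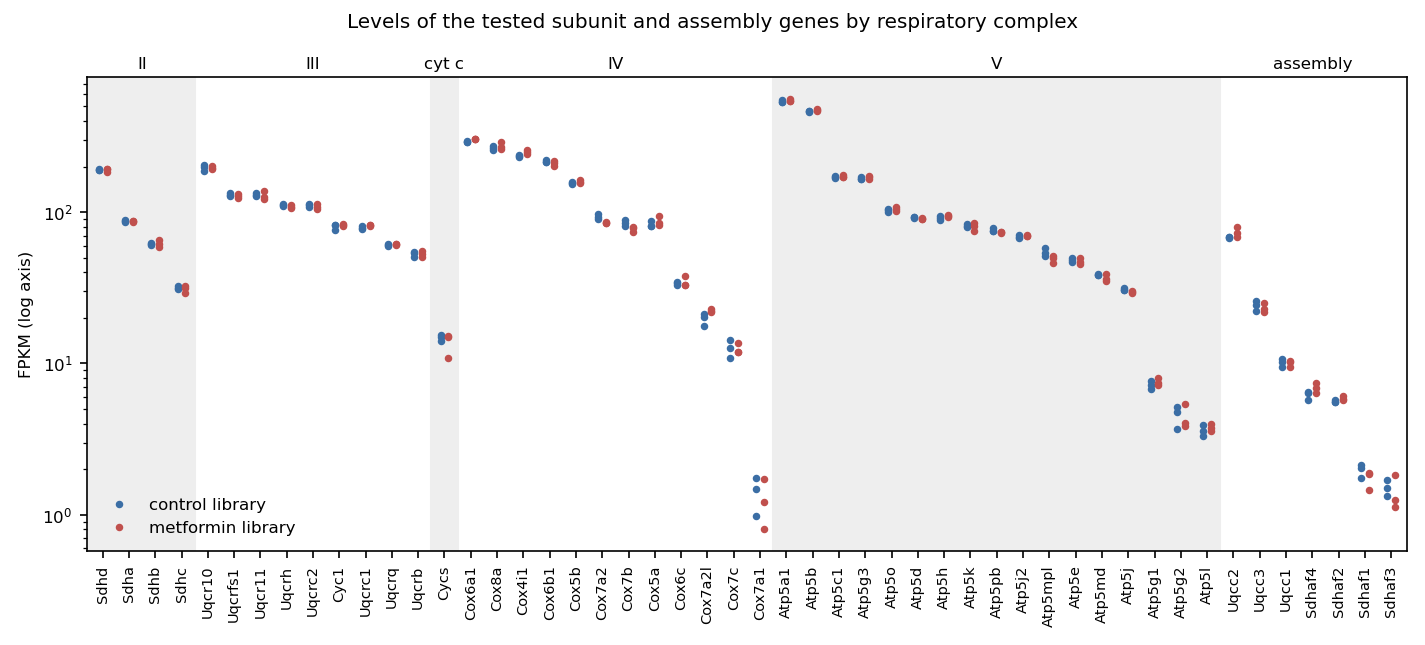
FPKM of the 50 tested members in each library, on a log axis, sorted by mean level within each complex, with control libraries in blue and metformin libraries in red. Levels run from 1.33 FPKM for Cox7a1 to 546 FPKM for Atp5a1, and the distance between members far exceeds the distance between the groups.

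With metformin, subunit transcripts moved little and in both directions. On the scale of log2(FPKM + 1), on which all fold changes are given and which understates changes of low genes, 24 of the 50 tested members were higher and 26 lower, and their median log2 fold change was -0.0031 against 0.0041 for all tested genes. The differences ran from -0.14 for Atp5mpl to 0.18 for Cox7a2l. Of all 10661 tested genes, 5580 were higher and 5081 lower. No member passed an adjusted p of 0.05 in either direction in limma with Benjamini-Hochberg adjustment over all tested genes, where 0.0281% of genes passed as higher and 0.0% as lower. At an unadjusted p under 0.05, 6 of the 50 members (12.0%) stood beside 10.8% of all genes. Cox7a2l, Cox4i1 and Cox6a1 were the 3 higher ones, beside 6.03% of all genes, and Cox7a2, Cox7b and Atp5mpl were the 3 lower ones, beside 4.81%. These shares were near those of all genes.

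Control and metformin values were apart, with no overlap, for 11 of the 50 members, or 22.0%, beside 17.0% of all tested genes. Cox7a2l, Uqcc2, Cox4i1, Sdhaf2, Uqcrc1 and Cox6a1 were higher in every metformin library than in any control library, beside 8.89% of all genes in that direction. Cox7b, Cox7a2, Atp5j, Atp5pb and Atp5d were lower in every metformin library, beside 8.1% of all genes. Leaving out a library can only keep or raise such counts. They reached 10 members higher without control repeat 2, where 13.8% of all tested genes were higher without overlap, and 10 lower without metformin repeat 1, where 13.1% of all genes were lower.

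The intervals show how large a difference between these libraries could have been missed. They are per gene and not adjusted for the number of genes. Spread between cultures is covered only if the repeats were separate cultures. The 95% interval of the log2 difference lay within 0.25 of 0 in either direction for 42 of the 50 members and within 0.5 for 49, the exception being Cox7a1 with an interval of -0.53 to 0.32 at 1.33 FPKM. Within a group the libraries varied by a median of 3.14% of the mean for the members and of 4.50% for all tested genes. Among genes of 50 to 300 FPKM this coefficient of variation was 2.31% for 30 members and 2.27% for all 1038 genes, so that members and other genes of like level had similar spreads.

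**Figure D2:**
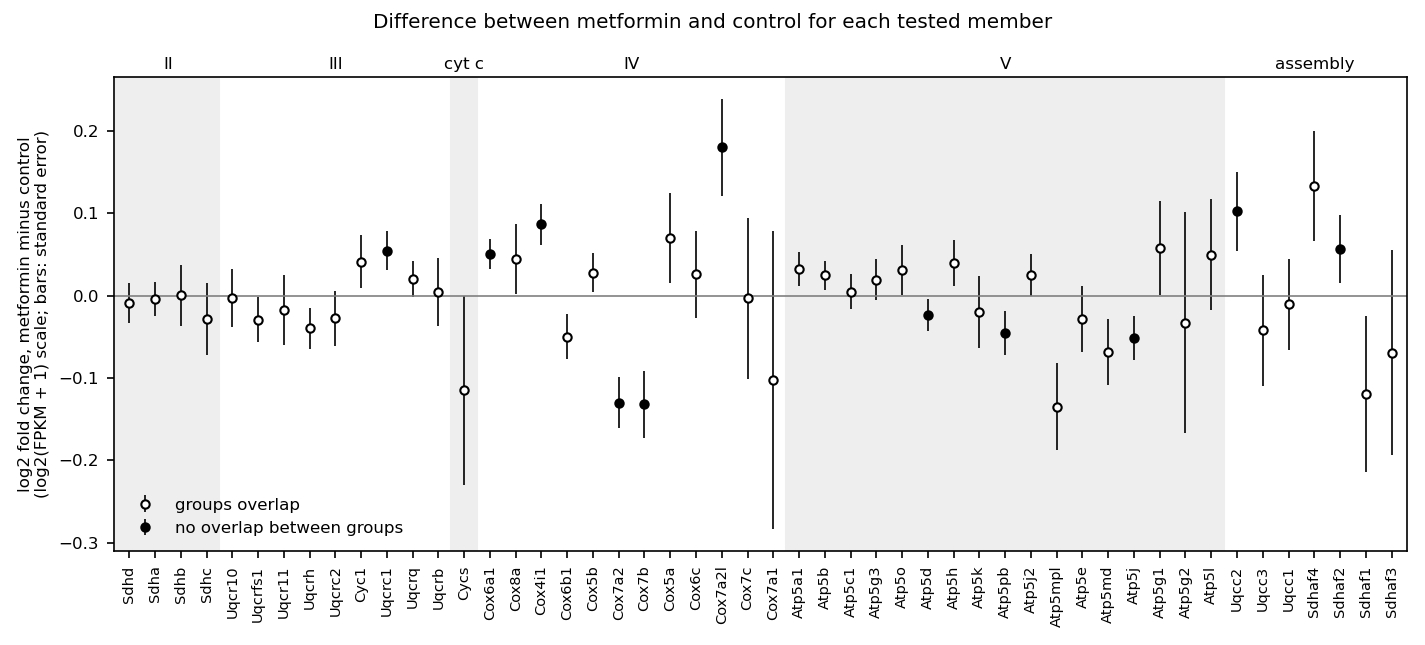
Log2 fold change, metformin minus control, of the 50 tested members by complex, with bars for the standard error from limma. Filled points mark the 11 members whose 3 control and 3 metformin values do not overlap. Points lie on both sides of 0 in complexes III, IV and V, between -0.14 and 0.18.

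Complex II, which is also the succinate dehydrogenase of the citric acid cycle, had the smallest differences. Sdha, the flavoprotein that oxidizes succinate, had 87.5, 88.6 and 86.1 FPKM in the control libraries and 87.4, 87.6 and 86.5 in the metformin libraries. Sdhb, which carries the iron-sulfur clusters, had 61.8, 62.4 and 61.0 FPKM in the control group and 61.8, 65.0 and 58.7 with metformin. The groups overlapped for both genes. Sdhc and Sdhd anchor the enzyme in the membrane and bind ubiquinone. Sdhc had 31.1, 32.5 and 31.3 FPKM in control libraries and 29.1, 31.6 and 32.5 in metformin libraries, and Sdhd had 190, 193 and 190 against 192, 184 and 194 FPKM. None of the 4 genes differed by more than 0.029 on the log2 scale in either direction, their lowest adjusted p was 0.855 (limma, Benjamini-Hochberg), and all 4 intervals fell within 0.25 of 0. The level of Sdhd was 6.04 ± 0.0827 times that of Sdhc in the control group and 6.13 ± 0.413 times with metformin (SD, n = 3 each), although the proteins pair in the complex.

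In complex III, 4 genes were higher and 5 lower, with a median log2 difference of -0.0030. Uqcr10, a small subunit, had the highest level of this complex, with 205, 200.2 and 187 FPKM in the control libraries and 201, 193 and 197 in the metformin libraries. Uqcr11, another small subunit, had 128, 134 and 129 FPKM in the control group and 138, 123 and 126 with metformin. The groups overlapped for both. Uqcrfs1, the Rieske iron-sulfur protein, had 131 ± 2.85 FPKM in the control group and 128 ± 3.45 with metformin (SD, n = 3 each), a level that did not differ from that of Uqcr11 beyond the spread of the libraries. Cyc1 is the haem-bearing cytochrome c1. Its FPKM was 80.3 ± 3.18 in the control group and 82.6 ± 1.26 with metformin (SD, n = 3 each), again with overlap. Uqcrc1, a core subunit on the matrix side, had 77.1, 80.5 and 79.1 FPKM in the control libraries and 81.2, 82.0 and 82.7 in the metformin libraries. All of its metformin values were above all control values, by a log2 difference of 0.055 with an adjusted p of 0.467 (limma, Benjamini-Hochberg). For its partner Uqcrc2 the groups overlapped, with means of 111 and 109 FPKM. The other members, Uqcrh, Uqcrq and Uqcrb, had log2 differences of -0.040, 0.020 and 0.0039.

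Cytochrome c, which shuttles electrons between complexes III and IV, was low on its own row for a protein of the chain. Cycs had 14.1, 14.9 and 15.4 FPKM in the control libraries and 10.9, 15.3 and 15.0 in the metformin libraries. Only metformin repeat 1 lay below the control libraries, and the log2 difference of -0.12 (adjusted p = 0.748, limma with Benjamini-Hochberg adjustment) was 0.030 without that library. The testis form Cyct was near 0, with means of 0.0367 and 0.0733 FPKM.

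Complex IV held Cox7a2l, the member with the largest log2 difference. Its 12 tested genes had a median log2 difference of 0.027, with 7 higher and 5 lower, and this median was -0.018 without metformin repeat 1. An unadjusted p under 0.05 was found for 5 of the 12, beside 10.8% of all tested genes. Cox4i1 encodes the common form of the subunit at which ATP is thought to regulate the enzyme. It had 231, 238 and 235 FPKM in the control libraries and 257, 243 and 249 in the metformin libraries, and the lowest metformin value was above the highest control value. The log2 difference was 0.087 with a standard error of 0.025 (adjusted p = 0.350, limma with Benjamini-Hochberg adjustment). Cox6a1, the form of subunit 6A found outside muscle, had 289, 292 and 297 FPKM in the control group and 302, 305 and 303 with metformin. These groups did not overlap either, with a log2 difference of 0.051 (adjusted p = 0.392 in the same fit). The span of Cox4i1 shares 352 bases with the gene Emc8 on the opposite strand, which had a mean of 13.0 FPKM.

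Cox7a2 and Cox7a2l, which belong to the same protein family, went in opposite directions. Cox7a2 is the form of subunit 7A used in most tissues, whereas Cox7a2l, also called SCAF1, joins complexes III and IV into a supercomplex and is known to be shortened in C57BL/6 mice. In the GRCm38 positions of the table Cox7a2 lies at chr9:79755361-79759878 and Cox7a2l at chr17:83501918-83517330, both on the minus strand. Cox7a2 had 89.5, 96.9 and 93.0 FPKM in the control libraries and 85.2, 84.2 and 85.5 in the metformin libraries. Cox7a2l had 20.1, 21.1 and 17.8 FPKM in the control libraries and 23.0, 21.9 and 22.4 in the metformin libraries. For the former all metformin values were the lower ones and for the latter all were the higher ones. Their log2 differences were -0.13 with a standard error of 0.031 (adjusted p = 0.320) and 0.18 with a standard error of 0.059 (adjusted p = 0.379, both limma with Benjamini-Hochberg adjustment), and Cox7a2 ranked 120 by p among the 10661 genes.

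The share of Cox7a2l in the summed FPKM of the family was 17.2% ± 1.22 in the control group and 20.6% ± 0.232 with metformin (SD, n = 3 each), a difference of 3.38 percentage points. In all 3 metformin libraries the share lay between 20.5% and 20.9%, above the 15.9% to 18.2% of the control libraries. The two-sided exact permutation test gave p = 0.1, the smallest that 3 libraries against 3 allow, or 0.3 adjusted over the 6 shares tested. The share of Cox7a2 went from 81.5% ± 1.11 to 78.2% ± 0.632 (SD, n = 3 each), with the same p. Shares of a family add up to a whole, so this fall mirrors the rise of Cox7a2l and is not a separate result. Cox7a1, the form of heart and skeletal muscle, had 1.40 ± 0.394 FPKM in the control group and 1.25 ± 0.466 with metformin (SD, n = 3 each), and its share of the family was 1.22% and 1.15% (exact permutation test, p = 0.8).

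Cox7b, a subunit with an isoform in the testis, was the other lower member of complex IV without overlap. It had 85.0, 89.0 and 81.4 FPKM in the control libraries and 80.4, 74.4 and 78.0 in the metformin libraries, so that the highest metformin value came close to the lowest control value. The log2 difference was -0.13 with a standard error of 0.041 (adjusted p = 0.367, limma with Benjamini-Hochberg adjustment). Cox8a, the common form of subunit 8, had 257, 267 and 273 FPKM in the control group and 291, 261 and 271 with metformin, and these values overlapped. Cox6b1, which faces the space between the membranes, went from 217 ± 2.37 to 210 ± 7.18 FPKM (SD, n = 3 each) with overlap. The remaining tested members Cox5a, Cox5b, Cox6c and Cox7c had log2 differences between -0.0031 and 0.070, and their groups overlapped.

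The isoforms of complex IV that other tissues use were at or near 0. Cox4i2, the form of lung and of hypoxic cells, had 0.28, 0.83 and 0.27 FPKM in the control libraries and 0.27, 0 and 0.28 in the metformin libraries. Cox6a2, the form of heart and skeletal muscle, had 0.33, 0.21 and 0.21 FPKM in the control libraries and 0.52, 0.95 and 0 in the metformin libraries. These levels were near that of 3 fragments on 1 kb. Cox8b, of heart and muscle, and the testis form Cox7b2 were listed above 0 in metformin repeat 2 alone, at 0.20 and 0.26 FPKM. The testis form Cox6b2 was listed at 0 in 4 libraries and at 0.13 and 0.07 FPKM in metformin repeats 2 and 3, and Cox8c was listed at 0 in all 6. With a mean under 1 FPKM, these 6 members were not tested.

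**Figure D3:**
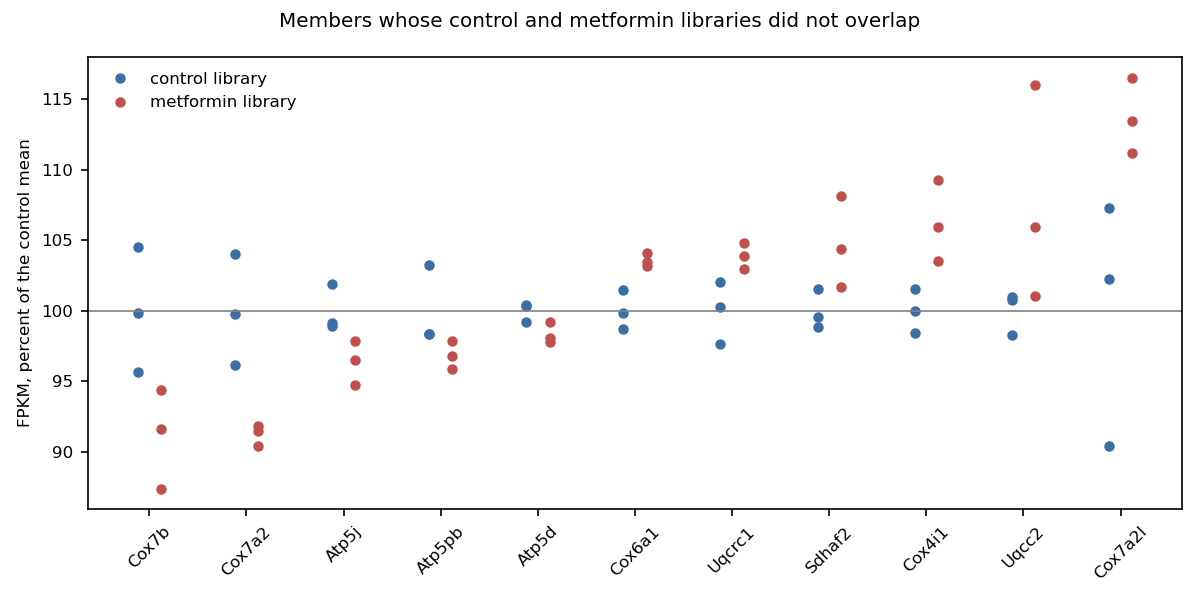
FPKM in each library as a percentage of the control mean, for the 11 members whose control (blue) and metformin (red) values do not overlap. Cox7b and Cox7a2 lie lowest and Cox7a2l and Uqcc2 reach highest, while for Atp5d the groups almost touch.

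In complex V, 9 genes were higher and 8 lower, with a median log2 difference of 0.0047. Atp5a1 and Atp5b encode the alpha and beta subunits, of which beta holds the catalytic sites. Atp5a1 had 533, 538 and 547 FPKM in the control libraries and 546, 546 and 564 in the metformin libraries, and Atp5b had 460.0, 465 and 466 against 466, 479 and 471 FPKM. The groups overlapped for both, and the ratio of Atp5a1 to Atp5b was 1.16 ± 0.0104 in the control group and 1.17 ± 0.0278 with metformin (SD, n = 3 each). Their log2 differences were 0.032 and 0.025 (adjusted p = 0.592 and 0.640, limma with Benjamini-Hochberg adjustment). Atp5c1, the central gamma stalk, had means of 171 and 172 FPKM.

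The other members of complex V without overlap were lower by small amounts. Atp5d, the delta subunit of the central stalk, had 92.4, 91.3 and 92.4 FPKM in the control libraries and 90.3, 90.01 and 91.3 in the metformin libraries. Its log2 difference was -0.024 (adjusted p = 0.694, limma with Benjamini-Hochberg adjustment), and its span shares 2204 bases with a gene on the opposite strand at 2.44 FPKM. Atp5j and Atp5pb are parts of the peripheral stalk that holds the head still. Atp5j had 31.4, 30.5 and 30.6 FPKM in the control group and 29.7, 29.2 and 30.2 with metformin, and Atp5pb had 74.7, 78.4 and 74.7 against 73.5, 72.8 and 74.3 FPKM. The span of Atp5pb shares 731 bases with Wdr77 on the opposite strand, which had a mean of 24.0 FPKM. The log2 differences were -0.051 and -0.045, with adjusted p-values of 0.529 and 0.570 in limma. The stalk subunits Atp5h and Atp5o had means that were 0.039 and 0.031 higher on the log2 scale, with overlap. Their adjusted p-values were 0.647 and 0.743 (limma, Benjamini-Hochberg). The point estimates of these stalk genes thus differed in sign, but none passed the adjusted threshold. For Atp5h the log2 difference was -0.012 once the FPKM of its near-identical copies, described below, was added.

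Atp5j overlaps Gabpa over 701 bases on the opposite strand, and Gabpa encodes the DNA-binding subunit of a factor known to activate respiratory genes. Gabpa was lower in all 3 metformin libraries as well, from 21.6 ± 0.366 to 20.2 ± 0.751 FPKM (SD, n = 3 each), with a log2 difference of -0.091 and an adjusted p of 0.423 (limma, Benjamini-Hochberg). Whether the authors' counting used strand is not given in the sources used here, and the part of shared fragments in these values was not tested. Atp5mpl, a small membrane subunit, had the largest fall of point estimate among the members, with 53.3, 57.6 and 51.0 FPKM in the control libraries and 51.2, 49.6 and 46.3 in the metformin libraries. Control repeat 3 lay below metformin repeat 1, so the groups overlapped, and the adjusted p was 0.430 in limma.

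The rotor ring of complex V is built from a single mature protein that 3 genes encode, Atp5g1, Atp5g2 and Atp5g3, whose targeting peptides differ. Atp5g3 took 93.5% ± 0.534 of their summed FPKM in the control group and 93.5% ± 0.514 with metformin (SD, n = 3 each). Atp5g1 took 4.01% and 4.14% and Atp5g2 took 2.52% and 2.41% in the same order, and the exact permutation tests gave p = 0.5 to 1. These shares rest on each gene's own row and leave out near-identical copies, of which the copy of Atp5g1 was listed at 183 FPKM. Over 225 aligned coding bases of the shared part, Atp5g1 and Atp5g2 were identical at 84.89%, Atp5g1 and Atp5g3 at 80% and Atp5g2 and Atp5g3 at 78.67%. The last 120 coding bases of each gene from GENCODE M1 are shown because they let fragments of the 3 genes be told apart, with capitals at the 31 positions where the genes differ.
Atp5g1: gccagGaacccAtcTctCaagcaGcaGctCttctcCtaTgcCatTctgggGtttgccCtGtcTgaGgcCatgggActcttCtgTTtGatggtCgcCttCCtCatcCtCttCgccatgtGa
Atp5g2: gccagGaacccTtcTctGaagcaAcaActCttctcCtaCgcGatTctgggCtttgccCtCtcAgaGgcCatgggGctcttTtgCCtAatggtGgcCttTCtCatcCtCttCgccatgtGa
Atp5g3: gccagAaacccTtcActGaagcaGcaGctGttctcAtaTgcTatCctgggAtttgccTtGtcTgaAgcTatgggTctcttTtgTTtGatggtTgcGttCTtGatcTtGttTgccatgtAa

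Among the assembly factors, 3 were higher and 4 lower. Uqcc2, which acts in the early assembly of complex III around newly made cytochrome b, had 67.1, 68.8 and 69.0 FPKM in the control libraries and 79.3, 69.0 and 72.4 in the metformin libraries. Metformin repeat 2 exceeded control repeat 3 only in the second decimal, and the log2 difference of 0.10 had an adjusted p of 0.492 (limma, Benjamini-Hochberg). With single libraries left out it ranged from 0.048 to 0.15. Sdhaf2, which helps to attach the flavin to Sdha, had 5.55, 5.70 and 5.59 FPKM in the control group and 6.07, 5.71 and 5.86 with metformin, again without overlap (log2 difference 0.057, adjusted p = 0.658 in limma). Its span shares 877 bases with Cpsf7 on the opposite strand, which had a higher mean of 17.4 FPKM. Sdhaf4 went from 6.20 ± 0.409 to 6.90 ± 0.550 FPKM and Sdhaf1 from 1.97 ± 0.199 to 1.74 ± 0.243 FPKM (SD, n = 3 each), both with overlap. Sdhaf3, Uqcc1 and Uqcc3 overlapped as well, with log2 differences of -0.069, -0.011 and -0.042.

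Summed over its members, no complex differed between the groups beyond the spread of its libraries. On a scale that sets every library to the same total, in FPKM per 1000000 summed FPKM, complex IV had 4692 ± 63.4 in the control group and 4744 ± 120 with metformin (SD, n = 3 each), a difference of 1.10% that was -0.371% without metformin repeat 1. Metformin repeat 1 was the highest library for this sum, at 4882, and the other metformin libraries were within the control range. Complex II differed by -0.841%, complex III by -0.665%, complex V by 0.459% and the assembly factors by 3.96%, and the groups overlapped for each. All members together came to 15677 ± 83.8 in the control group and 15739 ± 140 with metformin (SD, n = 3 each), a difference of 0.398% that was -0.0951% without metformin repeat 1.

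**Figure D4:**
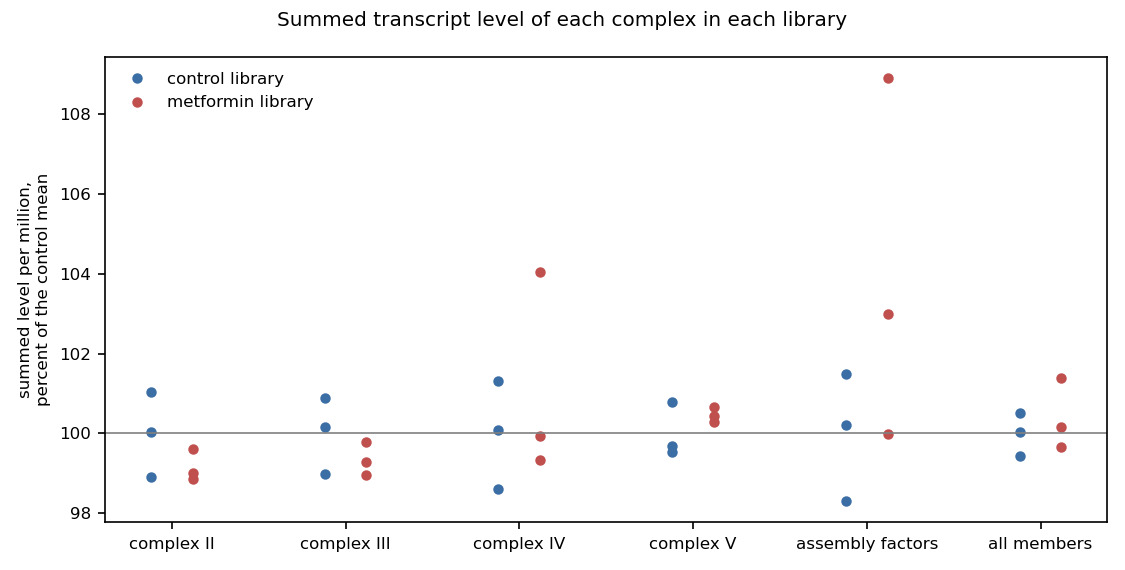
Summed level of the members of each complex in each library, per 1000000 of the summed FPKM of all genes, as a percentage of the control mean. Control libraries (blue) and metformin libraries (red) overlap in every column, and metformin repeat 1 is the highest library for complex IV, the assembly factors and all members.

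Several members at low FPKM had near-identical copies elsewhere in the genome that the table lists at high FPKM. Coding sequences of the 56 members were compared with the mouse genome, and 15 members had a match outside their own gene with at least 95% identity over at least 80% of the coding sequence. Most of the copies that have a row are annotated as pseudogenes in GENCODE M1. Of those named below, Gm10053, Gm11273 and Gm10250 are annotated there as protein-coding. For 5 members the rows at the copies exceeded the row of the member itself. Atp5g1 had a mean of 7.38 FPKM, whereas its copy Gm10039 had 183. Atp5l, a membrane subunit of complex V, had 3.69 FPKM, and the rows at its copies had 81.2, with 79.7 for Gm10221 alone. Cox7c had 12.5 FPKM against 127 for Gm12338. For these genes nearly all of the summed FPKM stood outside the subunit's own row. FPKM is scaled by the length of each row, and the rows of a gene and its copy may differ in length. Sums and comparisons of FPKM between a member and its copies are therefore not shares of fragments, here and below.

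Cycs had 14.3 FPKM and its copies 62.0, of which Gm10053 made up 59.8. Atp5md had 37.5 FPKM against 54.6 for Gm14539. Smaller parts lay at copies of Cox5b, with 157 FPKM against 62.9 for Gm11273, of Atp5h, with 92.8 against 46.2 for Gm10250, of Uqcr11, with 130 against 24.3 for Gm16418, and of Atp5g2, with 4.47 against 4.35 for its copies. Among tested members, the 35 without a copy had a median of 81.5 FPKM, the 13 with 1 to 4 copies a median of 74.7, and Cycs and Atp5l, with 5 or more copies, 14.3 and 3.69. Levels under 20 FPKM were also found for 6 of the 35 members without a copy and for 3 of the 13. Fragments of a subunit and of an identical copy cannot be told apart by sequence within the coding part, and how the authors' counting placed them was not tested. The levels of these members are therefore uncertain.

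The sequences show how alike gene and copy are. For Atp5g1 and Gm10039 the last 72 of 411 coding bases are given, with the only difference between them in capitals, and the stretch of Gm10039 lies at chr11:100223030-100223101 on the minus strand of NCBIM37.
Atp5g1: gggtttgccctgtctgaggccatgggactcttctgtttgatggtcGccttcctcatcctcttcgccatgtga
Gm10039: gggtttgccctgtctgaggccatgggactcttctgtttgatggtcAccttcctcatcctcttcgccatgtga
Over all 192 coding bases Cox7c and Gm12338, at chr11:75413265-75413456 on the minus strand, are identical.
Cox7c and Gm12338: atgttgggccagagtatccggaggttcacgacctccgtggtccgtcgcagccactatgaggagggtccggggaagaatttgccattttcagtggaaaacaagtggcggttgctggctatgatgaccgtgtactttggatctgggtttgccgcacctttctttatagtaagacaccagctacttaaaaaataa
The 177 coding bases of Atp5md are likewise identical to Gm14539, at chrX:20158264-20158440 on the minus strand.
Atp5md and Gm14539: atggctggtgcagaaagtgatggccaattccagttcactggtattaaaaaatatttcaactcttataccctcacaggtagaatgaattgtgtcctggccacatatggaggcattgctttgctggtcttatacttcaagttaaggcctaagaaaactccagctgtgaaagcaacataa
Uqcr11 and Gm16418, at chr1:168361836-168362006 on the minus strand, differ at 2 of 171 bases, shown in capitals.
Uqcr11: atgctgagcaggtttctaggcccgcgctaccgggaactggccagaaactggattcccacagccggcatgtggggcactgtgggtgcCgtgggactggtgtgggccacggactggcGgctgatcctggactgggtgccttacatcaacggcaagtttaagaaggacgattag
Gm16418: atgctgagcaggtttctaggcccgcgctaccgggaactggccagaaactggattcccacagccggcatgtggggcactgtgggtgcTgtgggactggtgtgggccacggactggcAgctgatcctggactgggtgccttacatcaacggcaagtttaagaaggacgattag

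**Figure D5:**
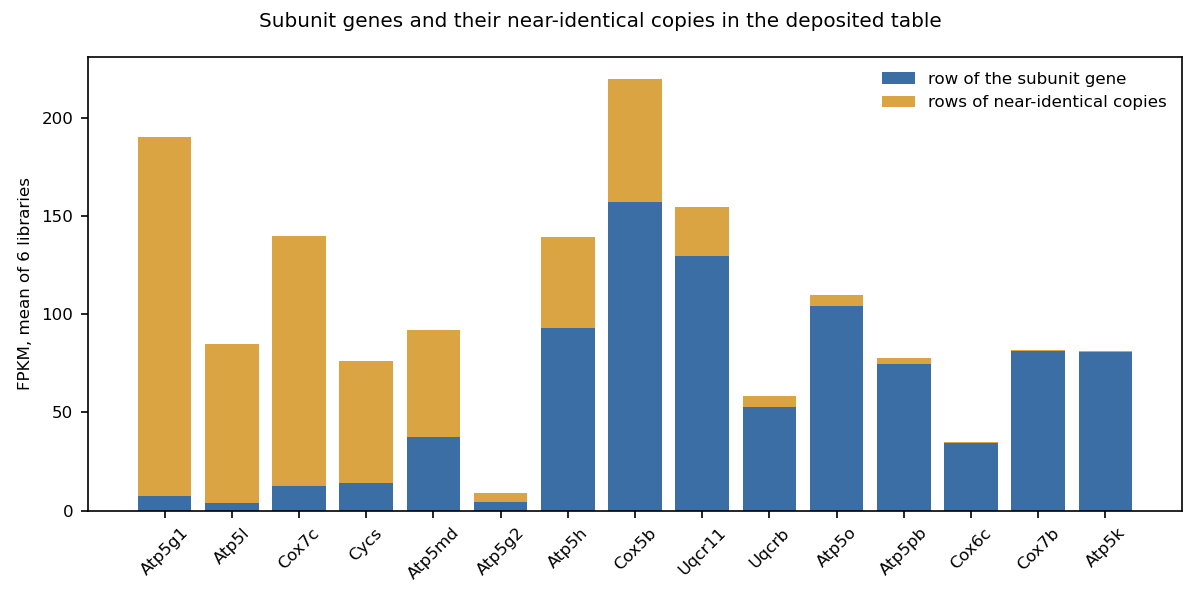
Mean FPKM over the 6 libraries of the rows of the 15 members with near-identical copies (blue) and of the rows at those copies (yellow), stacked. Copies hold more FPKM than the member for Atp5g1, Atp5l, Cox7c, Cycs and Atp5md.

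The FPKM of the copies was also added to that of their members. The sums of 13 of the 15 members overlapped between the groups, and those of Cycs and Cox7b did not, beside 17.0% of all tested genes without overlap. Cycs with its copies went from 77.9 ± 1.49 to 74.6 ± 1.28 FPKM (SD, n = 3 each) without overlap, where the row of Cycs alone had overlapped, and the log2 difference of the sums was -0.060. Cox7b with its copies kept the groups apart, and nearly all of that sum was Cox7b itself. Atp5pb, whose own row did not overlap, did overlap once its copy was added. Cox7a2, Cox7a2l, Cox4i1, Cox6a1, Uqcc2, Uqcrc1, Sdhaf2, Atp5j and Atp5d had no such copy.

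Promoters of respiratory genes are known for binding sites of NRF1 and of ETS-family factors such as GABP, whose sites were searched as GCGCA, then any base, then GCGC and as CCGGAAG on both strands, together with YY1 as AAGATGGCG, from 250 bases before to 50 after each RefSeq start on GRCm38.p6. A promoter was found for 44 of the 56 members, 41 of them tested. The NRF1 letters were present for 31.71% of the tested members and 13.6% of the 7580 tested genes with a promoter. ETS letters were present for 39.02% and 23.65%, and YY1 letters for 4.878% and 4.367%. Any of the 3 was present for 60.98% of the tested members and 36.79% of the tested genes with a promoter. By group, any of the 3 stood in 3 of 3 promoters of complex II, 3 of 5 of complex III, 3 of 13 of complex IV, 11 of 15 of complex V and 5 of 7 of assembly factors. The promoters of complex IV include those of Cox6b2, Cox7b2 and Cox8b, which were not tested and held none of the motifs. The GC content of tested members' promoters had a median of 57.67%, below the 61.33% of all tested genes. Those for Cox7a2, Cox7a2l, Cox7b, Atp5d, Atp5pb and Cycs held none of the motifs. Among the members without overlap, Cox6a1, Uqcc2 and Uqcrc1 held NRF1 letters, and no promoter was found for Cox4i1. Cox6a1, Sdhaf2 and Atp5j held ETS letters, and Atp5j also held YY1 letters. A gene was counted once per motif, whichever strand or listed start matched, and a match describes letters and is not a binding site.

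The 170 bases before the RefSeq start of Cox6a1 and Uqcc2 are shown, with motifs in capitals. Both are members without overlap whose promoters hold NRF1 letters before the start, while those of Uqcrc1 lay after it. Cox6a1 lies at chr5:115348959-115349128 and Uqcc2 at chr17:27133892-27134061 of GRCm38.p6, both on the minus strand.
Cox6a1: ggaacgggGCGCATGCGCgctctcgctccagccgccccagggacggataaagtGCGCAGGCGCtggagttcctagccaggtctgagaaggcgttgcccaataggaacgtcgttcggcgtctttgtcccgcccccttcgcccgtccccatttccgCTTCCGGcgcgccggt
Uqcc2: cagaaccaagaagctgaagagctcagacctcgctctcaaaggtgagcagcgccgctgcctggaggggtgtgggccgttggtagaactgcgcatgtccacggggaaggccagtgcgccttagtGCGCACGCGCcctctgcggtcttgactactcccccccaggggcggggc

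The listed regulators and other partners of the complexes also had no gene past the adjusted threshold in limma. Of 10 regulators 9 were tested, with 5 higher and 4 lower. Gabpa was the only one with an unadjusted p under 0.05, beside 10.8% of all tested genes. Nrf1 had 4.04 ± 0.0929 FPKM in the control group and 4.28 ± 0.408 with metformin, and Tfam, the packaging factor of mitochondrial DNA, had 21.3 ± 0.738 and 22.1 ± 0.0361 FPKM (SD, n = 3 each), both with overlap. The coactivator Ppargc1a was near 0, with means of 0.00667 and 0.0133 FPKM, whereas its relatives Ppargc1b and Pprc1 had 5.58 and 26.8 FPKM in the control group. A list of 34 assembly factors outside the rule had 33 tested genes, with 17 higher, 16 lower and a median log2 difference of 0.015. Fmc1 and Higd2a were higher and Slirp lower at an unadjusted p under 0.05, beside 6.03% and 4.81% of all tested genes. Without overlap, 1 of the 33 was higher and 3 were lower, beside 8.89% and 8.1% of all tested genes. Slirp, which stabilizes mitochondrial mRNAs with Lrpprc, had 12.0 ± 0.264 FPKM in the control group and 10.8 ± 0.325 with metformin (SD, n = 3 each) without overlap, and an adjusted p of 0.346 in limma. The inhibitor of complex V, Atpif1, had 88.6 ± 9.05 and 92.7 ± 3.21 FPKM (SD, n = 3 each) and overlapped.

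Subunits of complexes III to V that mitochondrial DNA encodes were measured in the same libraries. Of 6 genes, 2 were higher and 4 lower, with a median log2 difference of -0.055. The core subunit mt-Co1 had 5282 ± 39.3 FPKM in the control group and 5338 ± 14.2 with metformin, and mt-Cytb of complex III had 2490 ± 58.1 and 2377 ± 85.5 FPKM (SD, n = 3 each), both with overlap. mt-Co2 went from 64.7 ± 4.80 to 57.4 ± 5.04 FPKM (SD, n = 3 each), and its groups overlapped. It alone of the 6 had an unadjusted p under 0.05, beside 10.8% of all tested genes (adjusted p = 0.458, limma with Benjamini-Hochberg adjustment). mt-Atp6 and mt-Atp8, which share bases, had opposite signs at 11.9 to 10.2 and 2.25 to 3.28 FPKM. The core subunits of complex IV in mitochondrial DNA thus ranged from 5282 FPKM for mt-Co1 to 21.9 FPKM for mt-Co3 in the control group. Their products are present in equal numbers in the enzyme. Near-identical copies were not searched for these genes, and the part of fragment placement in this range was not tested.

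The gene sets most like the subunits of complexes II to V gave the following counts, to be read beside the 6.03% of all tested genes that were higher and the 4.81% that were lower at an unadjusted p under 0.05. Without regard to p, 5580 of the 10661 tested genes were higher and 5081 lower. The 37 tested subunits of complex I had a median log2 difference of 0.0048, with 19 higher and 18 lower, of which 3 and 2 had an unadjusted p under 0.05. For 79 cytosolic ribosomal protein genes the median was -0.0017, with 37 higher and 42 lower, of which 6 and 5 had such a p. Mitochondrial ribosomal protein genes had a median of 0.032, with 53 of 77 higher and 24 lower, of which 8 and 3 had such a p. No gene of these 3 sets passed the adjusted threshold in limma, and differences between the sets were not tested.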

How the data were processed

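RNA-seq of 3 control and 3 metformin libraries was analysed, grouped by the labels' treatment. Per gene and library the authors deposited FPKM for 55401 Ensembl identifiers, normalized for gene length and depth and rounded to 2 decimals, on GRCm38 positions. Submitters' processing notes name HISAT2, DESeq2 and mm9 without roles, and the labels and the paper name different library kits, KAPA Stranded mRNA-Seq and VAHTS mRNA-seq. Counts were not used here. Columns held no comparison of the authors' own.

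Symbols came from Ensembl identifiers, with 8 older member symbols updated through RefSeq. The members, lists and tests were chosen with earlier results of these data known. Named genes were the complex II subunits, the 2 highest members of each other complex, up to 3 per direction without overlap, and isoform families. Other names were chosen after their values were seen.

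The 10661 genes whose mean FPKM reached 1 were tested as log2(FPKM + 1) by limma 3.58.1 in R 4.3.3 (lmFit, eBayes with trend, two-sided, Benjamini-Hochberg). The fit was tested on 10661 genes simulated as normal values, for the comparison of metformin with control. It recovered 0% of 200 changes of 0.1 on the log2 scale, 37% of 0.25, 82.5% of 0.5 and 95.5% of 1. The changed genes were drawn from all tested genes, so these rates do not describe the members alone. Shares within families were compared by exact two-sided permutation tests. Copies were found with BLAST on NCBIM37, and matched to rows by Ensembl identifier. Alternatives were a pseudocount of 0.1, other filters, rescaling, quantile normalization, median centring, no trend, a replicate block, an unadjusted p and each library left out. Complex medians over members without copies were added after seeing the data.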

Additional observations from a re-analysis of the deposited data

How the results depend on the processing

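No member passed an adjusted p of 0.05 under any alternative run (limma, Benjamini-Hochberg), and the lowest adjusted p of a member ranged from 0.204 with a mean of at least 10 FPKM to 0.479 without metformin replicate 3. With an unadjusted p in its place 6 members passed. Without a filter on low values 3 genes of the whole table were called lower, and with 1 library left out 0 or 1. Splits of all genes at an unadjusted p were 643 higher and 513 lower, but 569 and 584 after rescaling.

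The deviations of same-numbered libraries correlated at -0.03, 0.02 and 0.05 across genes, and those of differently numbered libraries at -0.05 to 0.03. No deviation shared by repeat number was thus seen, which cannot tell whether same-numbered libraries were prepared together. With the replicate block, 0 members passed an adjusted p of 0.05, and the lowest adjusted p of a member was 0.465 (limma, Benjamini-Hochberg).

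Some directions rested on differences near 0. The log2 difference of Sdhb was -0.0042 after rescaling, -0.0048 after quantile normalization and -0.0020 after centring on the median, and that of Atp5a1 was -0.00045 after quantile normalization. Members without overlap, a count that leaving out a library can only keep or raise, numbered 6 to 10 higher and 5 to 10 lower with a library left out, beside 13.8% to 14.7% and 12.2% to 13.1% of all tested genes. Median log2 differences then ranged from -0.0218 to 0.0028 for complex II, from -0.0293 to 0.0162 for complex III, from -0.0181 to 0.0476 for complex IV and from -0.0160 to 0.0302 for the assembly factors. Single genes that changed sign were Atp5g2 (-0.15 to 0.0489), Uqcr10 (-0.0416 to 0.0254), Uqcr11 (-0.0641 to 0.0162), Cox7a1 (-0.25 to 0.0482), Cox8a (-0.00038 to 0.0798), Cycs (-0.19 to 0.0301), Sdha (-0.0146 to 0.0057), Sdhb (-0.0357 to 0.0368), Sdhc (-0.0607 to 0.0168) and Sdhd (-0.0236 to 0.0130). The cause was not tested. The signs of Cox7a2, Cox7a2l, Cox7b, Cox4i1, Cox6a1, Uqcc2 and Atp5j held in every alternative run. Their groups did not overlap, so leaving out a library could not have changed these signs. Signs also held for Atp5b, Cox6b1, Atp5g1 and Atp5g3, whose groups overlapped. In simulated data with this number of libraries and the spreads of all tested genes, log2 changes of 0.1 were never called. The members alone were not simulated.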
